A study of Mus musculus with 6 samples.

Results

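A set of 10 genes known as targets of ERK signaling, most of which restrain it in return, was followed in cochlear explants after hair cell (HC) damage: Spry1, Spry2 and Spry4 of the Sprouty family, Spred1 and Spred2, the phosphatase genes Dusp4 and Dusp6, and the transcription factor genes Etv1, Etv4 and Etv5. They were chosen by symbol, as known targets and feedback inhibitors of FGF and ERK signaling, and all 10 were found among the 24421 gene symbols of the count table and passed the filter on low counts. RNA was sequenced from wild-type mouse cochleae that were taken at postnatal day 2 and cultured after removal of the modiolus, the tectorial membrane and the tissue that forms the stria vascularis. The neomycin group (3 samples) received 1 mM neomycin, an aminoglycoside that kills HCs, for 6 h after 12 h in culture, and stayed in culture for 5 more days with 10 μM EdU, a label of DNA synthesis. The control group (3 samples) is read from its treatment label as explants without neomycin, although the growth text of all 6 samples describes the drug. The same growth text gives the controls, too, the 12 h of culture, the 5 later days and 10 μM EdU. The design text of the series speaks of a cell line, C3H10T1/2, and its knockdown derivatives, and the labels of the samples, which name cochlear tissue, were followed. Each sample was a pool of 6 to 8 cochleae, and the labels do not say whether the pools of a group came from separate litters, so the p-values measure the spread between these pools.

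Fibroblast growth factors bind receptor tyrosine kinases, which load Ras with GTP and start the kinase relay from Raf through MEK to ERK. Active ERK turns on ETS transcription factors of the PEA3 group and, with them, genes whose products act back on the relay, so the RNA of these genes is widely used as a readout of ERK activity. In the organ of Corti, FGF8 from inner HCs signals to the receptor FGFR3 on the neighboring supporting cells (SCs), and loss of Sprouty2 in mice is known to turn a Deiters' cell into an extra pillar cell.

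Total counts per sample ran from 50471116 to 66068108. In the explants, 9 of 11 HC marker genes were lower after neomycin by the thresholds given below, and their summed level was 707 to 820 CPM (counts per 1000000 counts, with library sizes adjusted by TMM) in control and 233 to 286 CPM after neomycin. Of 12 SC markers 2 were lower and 0 higher, with a summed level of 2203 to 2614 CPM in control and 2847 to 3010 CPM after neomycin. Most of that sum was S100a1, and the other 11 SC markers together had 792 to 811 CPM in control and 723 to 797 CPM after neomycin (leaving out the most abundant marker was chosen after seeing the data). The 2 called SC markers were Prox1 (log2 fold change -1.46) and Ngfr (-0.60). At the adjusted p-value alone 5 were lower, with Lfng, Jag1 and Npy, and 2 were higher, S100a1 and Fabp7, while Sox2 had 79.4 CPM in control and 91.9 CPM after neomycin (adjusted p = 0.064). All of these but Sox2 were named after their values were seen. Of 6 neuron markers 4 were lower, and of 7 endothelium markers 5 were lower. Of 8 mesenchyme and of 7 glia markers 1 was lower and 1 higher in each list, and of 7 macrophage markers 1 was higher. Of 8 proliferation genes none was called in either direction, and at the adjusted p-value alone 4 were lower and 0 higher. The summed level went from 95.1 to 168 CPM in control to 62.0 to 71.2 CPM after neomycin for neurons, and the ranges were 280 to 312 and 267 to 317 CPM for endothelium, 5746 to 6276 and 6183 to 6405 CPM for mesenchyme, 551 to 622 and 584 to 588 CPM for glia, 54.4 to 69.1 and 68.6 to 88.4 CPM for macrophages and 257 to 295 and 239 to 275 CPM for proliferation genes. The endothelium sum was mostly Emcn, which was not called, and the other 6 endothelium markers, among them the 5 that were lower, together had 41.5 to 52.8 CPM in control and 18.8 to 21.1 CPM after neomycin. No marker was at 0 in all samples. In explants of mixed cells, fewer cells of a type and less RNA per cell cannot be told apart, and the part of these marker changes in the results that follow was not tested.

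Of the 10 genes 7 were lower after neomycin and none was higher. Calls required an adjusted p-value below 0.05 together with a change of more than 1.5-fold (edgeR quasi-likelihood test over 15988 genes), and of all genes tested 6.6% were called lower and 2.24% higher. The 7 were Spry4, Spred2, Dusp4, Dusp6, Etv1, Etv4 and Etv5, and their log2 fold changes (log2FC, neomycin over control) lay between -1.32 and -0.75. Spry1 and Spred1 passed the adjusted p-value but not the fold change, and Spry2 passed neither. Without the fold threshold 9 of the 10 genes were lower, against 16.1% of all genes tested lower and 12.9% higher. For the same 9 genes every control sample lay above every neomycin sample, which was so for 22.5% of the genes tested. The median log2 fold change of the 10 genes was -0.80, and that of all genes tested was -0.0041.

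**Figure D1:**
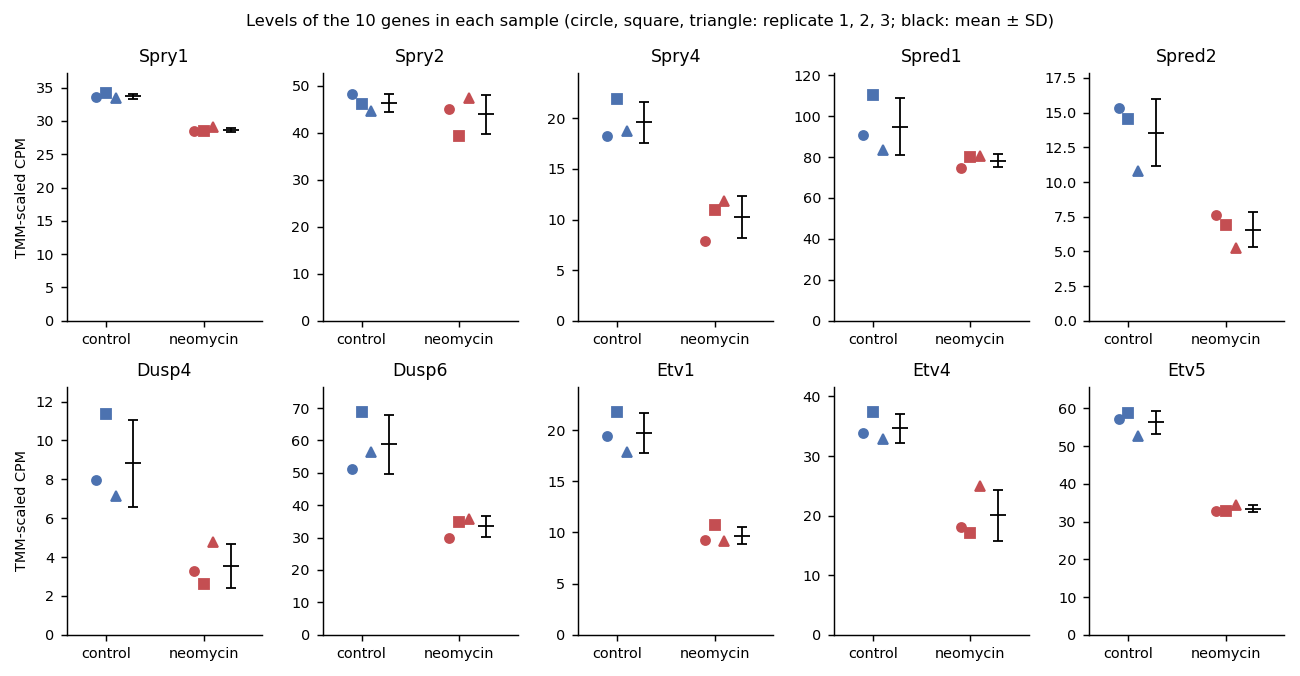
TMM-scaled CPM of each of the 10 genes in the 3 control (blue) and 3 neomycin (red) samples, with the group mean and SD in black. The groups are apart for 9 genes and overlap for Spry2, whose neomycin values run from 39.4 to 47.5 CPM.

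The phosphatases DUSP4 and DUSP6 remove the activating phosphates from ERK, DUSP4 in the nucleus and DUSP6 in the cytoplasm, where it is selective for ERK. Both of their genes fell. Dusp4, on chromosome 8 of GRCm38 (the same assembly as mm10) from 34807297 to 34819894, had 7.96, 11.3 and 7.15 CPM in control replicates 1, 2 and 3 and 3.26, 2.59 and 4.77 CPM in neomycin replicates 1, 2 and 3. Every neomycin sample was below the lowest control sample, and the spread was wide in both groups, at 8.82 ± 2.23 against 3.54 ± 1.11 CPM (SD, n = 3). Its log2FC of -1.32 (standard error, SE, 0.23, adjusted p = 0.00161) was the lowest of the 10 genes, and 393 of all genes tested had a lower one. Dusp6, on chromosome 10 from 99263231 to 99267489, had 51.2, 68.8 and 56.4 CPM in control and 29.8, 34.9 and 35.8 CPM after neomycin. The gap between the nearest samples of the groups was 15.4 CPM, larger than the SD of either group (9.04 and 3.20 CPM). Its log2FC was -0.81 (SE 0.11, adjusted p = 0.000303), so 57.0% of the control level was left.

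ETV1, ETV4 and ETV5 form the PEA3 group of ETS factors, which ERK activates by phosphorylation and which stand downstream of FGF receptors in many epithelia. All 3 of their genes fell. Etv5, on chromosome 16 from 22381309 to 22439719, had 57.1, 58.9 and 52.8 CPM in control and 32.8, 32.9 and 34.5 CPM after neomycin. Its SD was 3.15 CPM in control and 0.937 CPM after neomycin, against a gap of 18.3 CPM between the nearest samples, and its log2FC was -0.75 (SE 0.07, adjusted p = 2.75e-05). Etv4, on chromosome 11 from 101769742 to 101785371, had 33.8, 37.4 and 32.8 CPM in control and 18.0, 17.1 and 25.0 CPM after neomycin. Neomycin replicate 3 stood above the other two, still 7.80 CPM below the lowest control sample, and the log2FC was -0.79 (SE 0.13, adjusted p = 0.00107). Etv1, on chromosome 12 from 38779380 to 38870484, had 19.4, 21.8 and 17.9 CPM in control and 9.25, 10.7 and 9.16 CPM after neomycin. It was left at 49.3% of its control level, a log2FC of -1.02 (SE 0.11, adjusted p = 6.58e-05).

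Sprouty proteins are membrane-bound adaptors that block the activation of Ras and Raf below receptor tyrosine kinases, and 1 of their 3 genes was called. Spry4, on chromosome 18 from 38586247 to 38601415, had 18.2, 21.9 and 18.7 CPM in control and 7.91, 10.9 and 11.9 CPM after neomycin. All of its neomycin samples were below all control samples, with a log2FC of -0.94 (SE 0.14, adjusted p = 0.000683). Spry1, on chromosome 3 from 37639947 to 37644598, had 33.6, 34.1 and 33.4 CPM in control and 28.5, 28.5 and 29.1 CPM after neomycin. The change was small, a log2FC of -0.23 (SE 0.07, adjusted p = 0.0343), and both groups were narrow, with SDs of 0.380 and 0.320 CPM. An annotated gene on the opposite strand, Gm42922, shares exon bases with Spry1, and the strand setting of the counting is not given in the sources used here. Spry2, on chromosome 14 from 105891947 to 105896819, had 48.3, 46.1 and 44.5 CPM in control and 45.0, 39.4 and 47.5 CPM after neomycin. The groups overlapped, and the log2FC was -0.08 with a 95% interval from -0.26 to 0.10 (adjusted p = 0.519), an interval that leaves out a fall of the size seen in Spry4. With a correction for exon length, which takes out each sample's trend of counts with exon length, the value for Spry2 was -0.25 (adjusted p = 0.051).

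SPRED proteins, relatives of the Sproutys, bring the Ras inhibitor neurofibromin to the membrane. Spred2, on chromosome 11 from 19924375 to 20024026, had 15.3, 14.5 and 10.8 CPM in control and 7.59, 6.93 and 5.21 CPM after neomycin. Replicate 3 was the lowest of its group in both, and the highest neomycin sample lay 3.23 CPM below the lowest control sample. The log2FC was -1.04 (SE 0.16, adjusted p = 0.000878), the second largest fall of the 10 genes. Spred1, on chromosome 2 from 117121374 to 117182279, was the gene with the most reads, 3958 to 6271 counts per sample. It had 90.9, 110 and 83.6 CPM in control and 74.5, 79.8 and 80.5 CPM after neomycin, a log2FC of -0.28 (SE 0.09, adjusted p = 0.0441). Only 3.10 CPM separated its groups, less than the control SD of 13.8 CPM, and control replicate 2 stood above the other control samples.

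**Figure D2:**
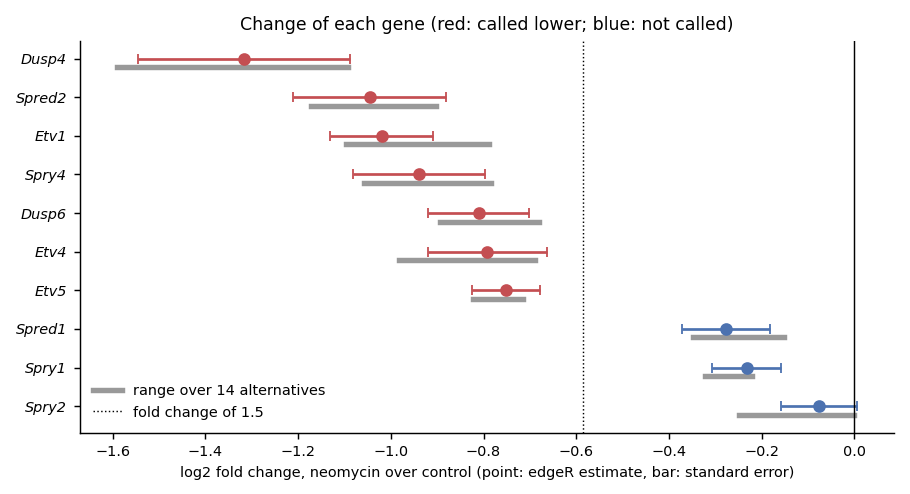
Log2 fold change of each gene after neomycin with its standard error (point and bar), and below it in gray the range over 14 other ways of processing or leaving out a sample. The 7 genes called lower (red) keep values beyond the dotted line of a 1.5-fold change over the whole range, while Spred1, Spry1 and Spry2 (blue) lie between that line and 0.

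The 7 calls held in all 14 alternatives, and the highest adjusted p-value among them was 0.0130, for Dusp4 without control replicate 2. The smaller changes of Spry1 and Spred1 did not hold in this way. Without control replicate 1, control replicate 2, neomycin replicate 1, neomycin replicate 2 or neomycin replicate 3, neither gene passed, and the count without a fold threshold was 7 in place of 9. The highest adjusted p-values were 0.114 for Spry1, without neomycin replicate 2, and 0.222 for Spred1, without control replicate 2, where its log2FC was -0.15. With all samples and the exon length correction, Spred1 did not pass either (log2FC -0.17, adjusted p = 0.178), while Spry1 did (-0.32, adjusted p = 0.00569). The log2FC of Spry2 was -0.04 when control replicate 1 was dropped, -0.0019 when neomycin replicate 2 was, and -0.13 when neomycin replicate 3 was.

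Promoter windows were available for 7 of the 10 genes, as 9 windows of 300 bases (250 before the RefSeq transcription start and 50 after it, build GRCm38.p6). They are shown for Dusp6 and Spred2, which hold the ETS motif CGGAAG or its reverse complement CTTCCG, and for Spry2, which holds none. Capitals mark the motif, and each strand is written 5′ to 3′ in the direction of the gene, on the plus strand for Dusp6 and Spred2 and on the minus strand for Spry2.
Dusp6, chr10:99262981-99263280: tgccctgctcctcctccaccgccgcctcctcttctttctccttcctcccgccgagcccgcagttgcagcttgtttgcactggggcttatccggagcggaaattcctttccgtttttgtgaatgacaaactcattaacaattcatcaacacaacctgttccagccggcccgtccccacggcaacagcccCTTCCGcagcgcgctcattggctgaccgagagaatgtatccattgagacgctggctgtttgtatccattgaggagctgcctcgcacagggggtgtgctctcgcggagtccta
Spred2, chr11:19924192-19924491: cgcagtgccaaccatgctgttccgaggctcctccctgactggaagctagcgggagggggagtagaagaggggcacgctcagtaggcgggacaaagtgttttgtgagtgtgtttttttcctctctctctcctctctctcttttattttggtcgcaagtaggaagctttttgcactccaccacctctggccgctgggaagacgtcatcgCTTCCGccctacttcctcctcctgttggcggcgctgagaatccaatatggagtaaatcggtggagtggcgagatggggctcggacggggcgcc
Spry2, chr14:105896770-105897069: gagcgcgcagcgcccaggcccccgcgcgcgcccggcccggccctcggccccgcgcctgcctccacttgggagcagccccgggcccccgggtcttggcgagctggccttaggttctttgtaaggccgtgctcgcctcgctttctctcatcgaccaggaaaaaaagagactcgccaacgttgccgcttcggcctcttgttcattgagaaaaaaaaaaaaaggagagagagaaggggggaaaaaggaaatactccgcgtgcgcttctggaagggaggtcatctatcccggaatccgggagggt
The motif began 62 bases before the start in Dusp6 and 43 bases before it in Spred2. Of the 9 windows 3 held it, those of Spred1, Dusp6 and Spred2, and so did 16.9% of all 32851 windows of this length. It was not found in the windows of Etv1 and Etv5, which were called lower, or of Spry1 and Spry2, which were not. Spred1, also not called, had 2 matches in its window. A link between the motif and the change was not tested. The AP-1 motif TGACTCA was in 0 of the 9 windows and 5.2% of all, the CRE motif TGACGTCA in 0 and 1.79%, the GC box GGGCGG in 4 and 35.7%, and the TATA box TATAAA in 1, of Etv1, and 13.6%. Both strands were searched, and none of these motifs is part of another. A match is a run of letters and not a binding site.

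Divided by the length of their annotated exons, the levels of the 10 genes covered a wide range. In control explants the order by CPM per kb of exon was Spry2 (22.2 ± 0.906, SD, n = 3 here and below), Dusp6 (18.8 ± 2.89), Spred1 (13.99 ± 2.03), Etv5 (13.7 ± 0.767), Spry1 (11.6 ± 0.131), Etv4 (11.2 ± 0.778), Spry4 (4.13 ± 0.425), Dusp4 (3.22 ± 0.813), Spred2 (2.94 ± 0.522) and Etv1 (1.48 ± 0.147). The ranges of neighbors overlapped for Spry2 with Dusp6, Spred1 with Etv5, Spry1 with Etv4, Spry4 with Dusp4 and Dusp4 with Spred2, so their order is not settled by these samples. After neomycin Spry2 stood alone at the top with 21.1 ± 2.00 CPM per kb. Spred1 (11.5 ± 0.483), Dusp6 (10.7 ± 1.02) and Spry1 (9.87 ± 0.110) followed as overlapping neighbors, then Etv5 (8.14 ± 0.228) and Etv4 (6.46 ± 1.39), which overlapped too. Spry4 had 2.15 ± 0.433, Spred2 1.42 ± 0.266, Dusp4 1.29 ± 0.406 and Etv1 0.730 ± 0.0649 CPM per kb. Spred2 and Dusp4, in the reverse order of control, overlapped in both groups, so their order is not settled in either. The exons annotated for Etv1 add up to 13.3 kb, against 2.09 kb for Spry2, and a gene read mostly as a shorter transcript has a higher level per length than given here. The lengths are of GENCODE exons, while the study's methods state that reads were counted by the UCSC annotation of mm10. The exons counted may thus differ from those used for the length.

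**Figure D3:**
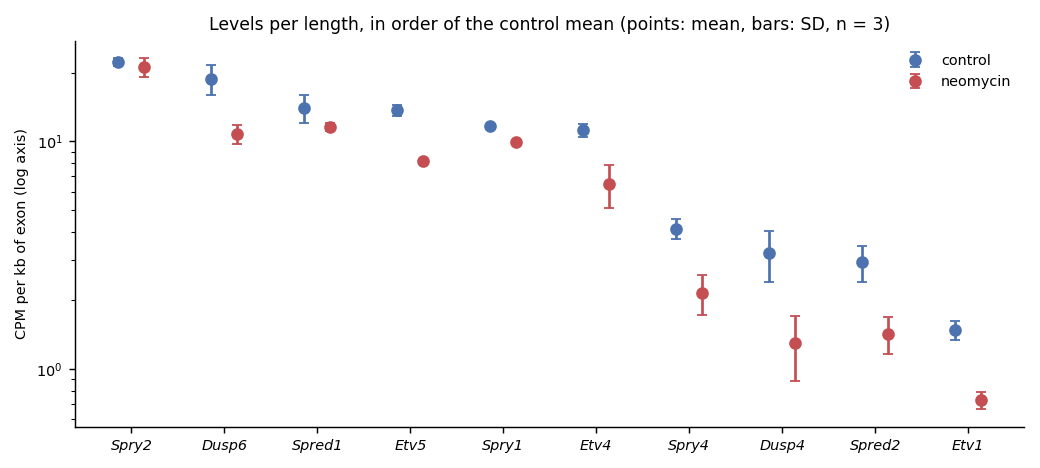
Mean level per length (CPM per kb of exon, log axis) of the 10 genes in control (blue) and neomycin (red) samples, with SD bars, ordered by the control mean. Spry2 and Dusp6 overlap at the top in control, and after neomycin Spry2, at 21.1 CPM per kb, is well above the next gene.

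Ratios between family members describe how far they moved apart, since scaling of the library cancels in a ratio. The log2 ratio of Spry4 to Spry2 was -1.41, -1.07 and -1.25 in control and -2.50, -1.85 and -2.00 after neomycin, a difference of -0.87. In every neomycin sample Spry4 was thus a smaller share of the pair than in any control sample. The difference in log2 ratio was -0.72 for Spry4 to Spry1, -0.77 for Spred2 to Spred1 and 0.27 for Etv5 to Etv1, each without overlap between the groups. A trend of counts with exon length does not cancel in a ratio. With the exon length correction Etv1 had a log2FC of -0.79, close to Etv5 (-0.76) and Etv4 (-0.87), so the difference of Etv5 to Etv1 depends on exon length. Spry4 (-0.91) stayed apart from Spry1 (-0.32) and Spry2 (-0.25), and Spred2 (-1.02) from Spred1 (-0.17). For the ratios of Spry2 to Spry1 (0.15), Dusp4 to Dusp6 (-0.52), Etv4 to Etv1 (0.21) and Etv5 to Etv4 (0.06) the groups overlapped. The last 3 moved by more than 1.5 times with single samples: Dusp4 to Dusp6 was at -0.29 without neomycin replicate 2, Etv4 to Etv1 at 0.39 without neomycin replicate 2 and -0.0005 without neomycin replicate 3, and Etv5 to Etv4 between -0.03, when neomycin replicate 2 was dropped, and 0.21, when neomycin replicate 3 was dropped. Dropping control replicate 2 gave 0.04 for that last pair, and dropping neomycin replicate 1 gave 0.0056. The exact two-sided permutation test over samples gave p = 0.1 for the 4 pairs without overlap, the smallest p that 3 against 3 allows, and 0.2 after adjustment over the 8 pairs compared, so none of these differences could pass the threshold in this design. Dusp4 to Dusp6 and Etv4 to Etv1 varied most among the neomycin samples, with SDs of 0.42 and 0.39 on the log2 scale.

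**Figure D4:**
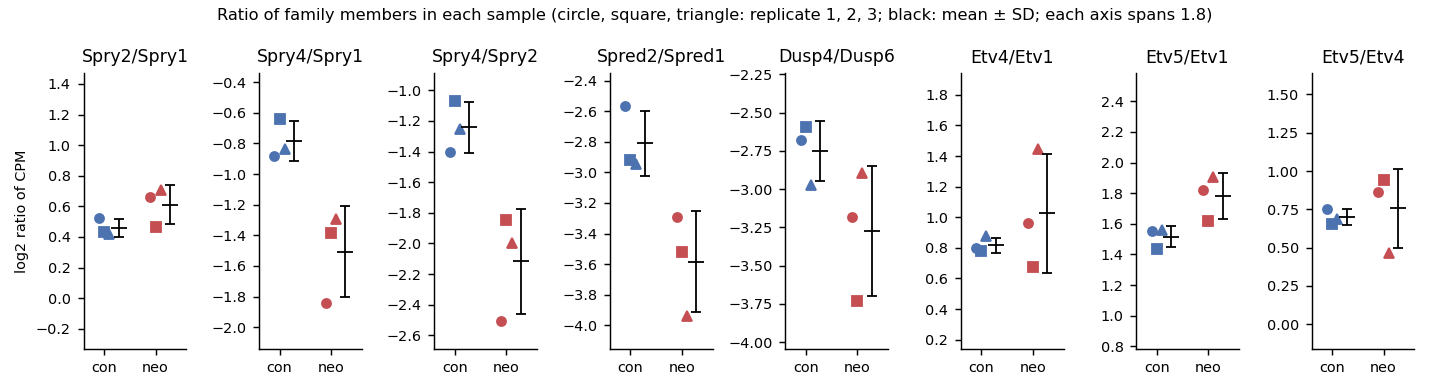
Log2 ratio of the CPM of 2 family members in each control (blue, con) and neomycin (red, neo) sample, with mean and SD in black. The groups are apart for Spry4/Spry1, Spry4/Spry2, Spred2/Spred1 and Etv5/Etv1 and overlap for the other 4 pairs.

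Within a group the 10 genes tended to be high or low in the same samples. Control replicate 2 had the highest value of its group for 8 of them and control replicate 3 the lowest for 8. Among the neomycin samples, replicate 3 was the highest for 8. These counts were not set against those of all genes tested, so they do not show a pattern particular to the 10 genes. Set against the mean of the controls, the 10 genes had a median log2 difference of -0.02, 0.13 and -0.08 in control replicates 1, 2 and 3 and of -0.88, -0.81 and -0.70 in neomycin replicates 1, 2 and 3, so the step between the groups was larger than the spread within either.

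The rest of the pathway was described with 7 lists of 113 genes in all, of which 104 were tested. Of these 14 were called lower and none higher, against 6.6% lower among all genes, with a median log2FC of -0.19. Among the other phosphatases for MAP kinases together with Spry3, Spred3 and Il17rd, 2 of 11 were lower and all 11 log2FCs were below 0 (median -0.53). Dusp2, a nuclear phosphatase induced by ERK, went from 2.00 ± 0.101 to 0.385 ± 0.145 CPM, a log2FC of -2.38 (SE 0.35, adjusted p = 0.00053). Dusp8, which acts mainly on JNK and p38 kinases, went from 11.5 ± 0.238 to 6.86 ± 0.883 CPM, a log2FC of -0.75 (adjusted p = 0.00132).

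Among the 21 genes of the relay itself, its adaptors, Ras proteins, kinases and scaffolds, only Ksr1, a scaffold that holds Raf, MEK and ERK together, was called lower, with a log2FC of -0.66 (adjusted p = 0.00728). It fell short of the fold threshold without control replicate 1 and without neomycin replicate 3 (-0.50 in each) and with the exon length correction (-0.54). The median of the list was -0.11, and at the adjusted p-value alone 6 of its genes were lower and 1 higher. Of 16 genes for Ras GTPase activators and dampers of receptors 4 were lower (median -0.33). Cbl, a ubiquitin ligase for activated receptors, went from 5.63 ± 2.68 to 1.24 ± 0.553 CPM, a log2FC of -2.17 (adjusted p = 0.00215). Rasal2 (-0.71) and Rasa3 (-0.65), which encode Ras GTPase activating proteins, were also called. Each lost its call in at least 1 alternative: Rasal2 without control replicate 2 (-0.57) and with the exon length correction (-0.47), and Rasa3 without neomycin replicate 1 (-0.56).

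Of 20 other ETS factors tested 3 were lower (median -0.19). Elk4, which drives immediate early genes together with serum response factor, had a log2FC of -1.50 (adjusted p = 0.00297), Elf4 had -0.75 (adjusted p = 0.00523) and the epithelial factor Ehf had -0.60 (adjusted p = 0.00294). Ehf was at -0.56 without control replicate 3, at -0.57 without neomycin replicate 1 and at -0.53 with the exon length correction, short of the fold threshold. Among 13 further genes used as readouts of ERK, 2 were lower (median -0.31). At the adjusted p-value alone, 4 of the 13 were lower and 1 higher, and the others passed in neither direction. Epha2, an Ephrin receptor, went from 27.3 ± 1.86 to 16.4 ± 2.44 CPM, a log2FC of -0.73 (adjusted p = 0.000691). Fosl1, an AP-1 subunit, had a log2FC of -2.17 (adjusted p = 0.00695) on 7 to 76 counts per sample. The alternative filter of at least 1 CPM in at least 3 samples dropped Fosl1, so it was not tested in that setting.

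Of the genes tested, 1 of 17 of the FGF family and 1 of 6 for FGF receptors and co-receptors were lower, with medians of -0.02 and -0.12. Fgf8 went from 4.26 ± 0.260 to 1.33 ± 0.0974 CPM, a log2FC of -1.68 (SE 0.20, adjusted p = 0.00013). Fgfr3 went from 165 ± 6.70 to 104 ± 8.87 CPM, a log2FC of -0.66 (SE 0.08, adjusted p = 0.000129). It was at -0.55 with the exon length correction, short of the fold threshold. At the adjusted p-value alone, 2 of the 6 receptor and co-receptor genes were lower and 1 higher. Fgf20, a ligand of the embryonic sensory epithelium, had 7 to 35 counts per sample and a log2FC of 0.88 (adjusted p = 0.26), which was 1.496 without control replicate 1 and 0.44 without neomycin replicate 2.

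**Figure D5:**
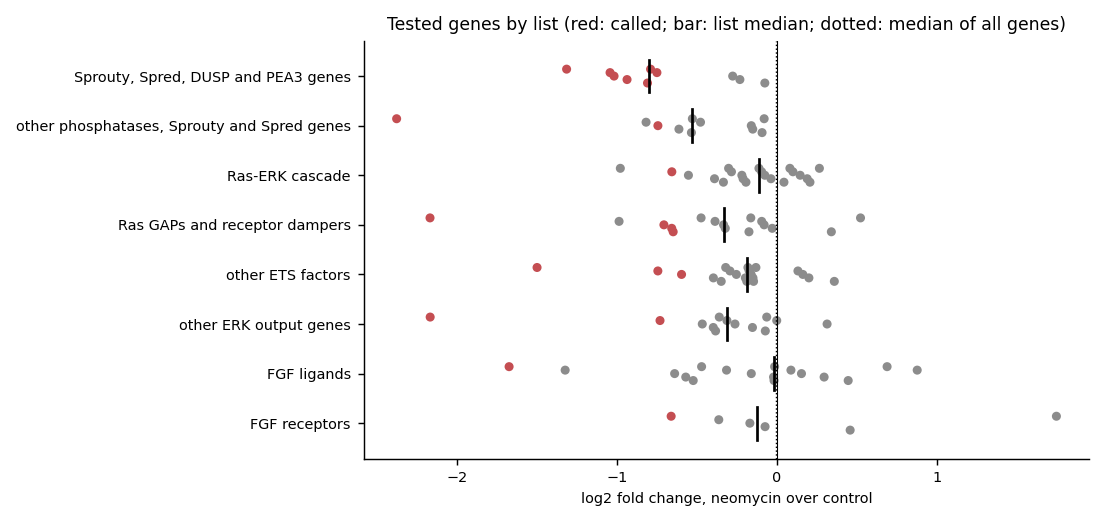
Log2 fold change of the 10 Sprouty, Spred, DUSP and PEA3 genes (top) and of every tested gene of the 7 pathway lists, with called genes in red and the median of each list as a bar. The 10 genes have the lowest median, -0.80, and in the lists the called genes all lie below 0.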

How the data were processed

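The authors deposited raw counts of reads per gene symbol for 3 control and 3 neomycin samples. Per the study's methods and processing notes, reads were handled with CASAVA 1.8 and Trimmomatic 0.23, aligned to mm10 with HISAT2 and counted with HTSeq. Genes were filtered by filterByExpr, which kept 15988 of 24421 symbols (4596 were at 0 in all samples), scaled by TMM and tested with the quasi-likelihood test of edgeR 4.0.16 in R 4.3.3, with Benjamini-Hochberg adjustment over all genes tested. The SE is the size of the log2FC over the root of its F value. Calls required an adjusted p-value below 0.05 together with a change of more than 1.5-fold. The code was tested on simulated data. Exon lengths came from GENCODE for GRCm38, and promoter windows from RefSeq. The 10 genes, the lists, the markers and the motifs were chosen with earlier results of these data known. The text names the called genes of the lists, at most 4 in each, and the FGF ligand Fgf20 whatever its change, except for a gene that is not reported here. Alternatives were DESeq2 1.42.0, limma-voom (limma 3.58.1), other scalings and filters, an exon length correction, a replicate block and leaving out each sample.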

Additional observations from a re-analysis of the deposited data

How the results depend on the processing

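The count of 7 genes called lower out of 10 was the same in all 14 alternatives and when any sample was left out (7 to 7), and the median log2 fold change ran from -0.88 to -0.72 over them. The count at the adjusted p-value alone, 9, was 8 with the exon length correction and 7 to 9 when 1 sample was left out. The log2 fold change of Spry2 stayed below 0, from -0.25 to -0.0019. The lists gave 12 to 18 genes called lower, the largest count with scaling by total counts, which put the median of all genes at -0.07, and 1 gene, Kl, higher without control replicate 3. With the replicate number as a block (replicate block) 7 of the 10 genes were called, 16 list genes, and 1465 genes in all in place of 1413. At the adjusted p-value alone, the block gave 3229 genes lower and 2785 higher, in place of 2571 and 2058. Deviations of same-numbered samples correlated at 0.165, 0.026 and 0.095, and those of differently numbered samples at -0.129 to 0.032. Control replicate 2 correlated at 0.032 with neomycin replicate 3 and at 0.026 with neomycin replicate 2. Whether same-numbered samples share an origin is not settled by these values, and the main fit left the number out. Ksr1, Rasal2, Rasa3, Ehf and Fgfr3 lost their call in at least 1 alternative, and Fosl1 was not tested with the filter on CPM. With 3 samples a group, no ratio between family members could pass the exact test.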
